A study of Mus musculus with 24 samples.

Results

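The angiopoietin and Tie receptor genes were followed through 24 mouse liver RNA-seq libraries. The 6 genes were *Angpt1*, *Angpt2*, *Tek*, *Tie1*, *Ptprb* and *Angptl4*, taken by symbol, and all 6 were found among the 48820 entries of each of the 4 count tables. The mice were C57BL/6 by the labels and of C57BL/6J background by the methods, and each of the 8 groups had 3 libraries. *Gdf2/Bmp10* HSC-KO mice carried floxed *Gdf2* (BMP9) and *Bmp10* with *Lrat*-Cre, which acts in hepatic stellate cells (HSCs) and leaves the alleles intact in other sources of the ligands. From these mice and their controls, liver endothelial cells (ECs, CD45-CD31+) and liver macrophages (CD45+Ly6C-F4/80+CD64+) were sorted at 8 to 10 weeks, and whole livers were taken at 12 weeks. *Smad4* cKO mice (floxed *Smad4*, labelled Smad4FF cKO, with *Vav1*-Cre, which acts in hematopoietic cells at large and not in macrophages alone) gave sorted liver macrophages at 8 to 10 weeks, as did their own Smad4FF controls. The labels give the other controls as BMP9/10 control (macrophages) or control (ECs and livers), with no alleles named.

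The angiopoietins are secreted ligands of TEK (also called TIE2), a receptor tyrosine kinase of endothelial cells. ANGPT1, made by mural and other stromal cells, activates TEK and keeps vessels quiescent, while ANGPT2, stored and released by ECs, acts as a weak agonist or as an antagonist depending on context. TIE1 is a related receptor that does not bind angiopoietins by itself and modulates TEK in the same complex, and PTPRB (VE-PTP) is the endothelial phosphatase that removes phosphate from TEK. ANGPTL4 resembles the angiopoietins in structure but does not act through the Tie receptors. It inhibits lipoprotein lipase and is induced by fatty acids and by low oxygen in many tissues.

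All 6 genes are protein coding in GENCODE vM21 (GRCm38). *Tek* (ENSMUSG00000006386.15) lies at chr4:94739289-94874976 on the plus strand and *Tie1* (ENSMUSG00000033191.14) at chr4:118471191-118490061 on the minus strand. *Angpt1* (ENSMUSG00000022309.9) lies at chr15:42424723-42676977, *Angpt2* (ENSMUSG00000031465.6) at chr8:18690263-18741562 and *Angptl4* (ENSMUSG00000002289.16) at chr17:33773750-33781830, all on the minus strand. *Ptprb* (ENSMUSG00000020154.10) lies at chr10:116275523-116389535 on the plus strand. *Angpt1* shares 737 exon bases with the antisense gene *Gm17473*, so reads there cannot be assigned if the counting ignored strand. *Angpt2* sits inside *Mcph1* on the other strand with no shared exon base. The longest run of identical bases between the longest transcripts of *Tek* and *Tie1* was 17, and between *Angpt1* and *Angpt2* also 17.

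*Tek* fell in both ECs and livers in the results that follow, so the 250 bases before its start are shown from RefSeq (GRCm38.p6), at chr4:94739039-94739288 on the plus strand. Capitals mark GGAA, the core of the sites bound by ETS factors, or its reverse complement.
Tek: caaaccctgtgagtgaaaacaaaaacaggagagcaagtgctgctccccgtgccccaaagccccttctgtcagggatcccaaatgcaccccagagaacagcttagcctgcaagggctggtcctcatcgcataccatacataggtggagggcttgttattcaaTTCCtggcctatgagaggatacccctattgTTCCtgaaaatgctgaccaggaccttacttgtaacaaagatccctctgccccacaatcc
GGAA was found 2 times before *Tek*, counting both strands. It was chosen after the sequence was read, and 93.4% of 32851 promoters of the same length hold it, so its presence does not set *Tek* apart. Of 4 other motifs, searched on both strands, none was in the window. GGCGCC is held by 9.59% of all promoters and TGTTTAC by 3.17%. ACGTG is held by 16.6% and AGGTCA by 14.0%. RefSeq starts *Tie1* inside the gene as GENCODE draws it, and 212 of the 250 bases before that start are exon bases of a GENCODE transcript, so they were not used. The promoters of the other 4 genes were not analysed here.

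Library totals ran from 60911527 to 110879155 counts. The deleted genes followed the labels: *Gdf2* had 2036, 720 and 2030 counts in control livers and 287, 178 and 189 in HSC-KO livers, *Bmp10* had 362, 209 and 180 against 7, 22 and 8, and *Smad4* had 40.1, 35.3 and 42.8 CPM (counts scaled to library depth) in control macrophages against 17.2, 12.6 and 15.4 CPM in cKO macrophages. The make-up of the ECs moved with the HSC-KO. Of their counts, 6 sinusoidal markers (*Stab2*, *Lyve1* and others) took 1.29 to 1.64% in control ECs and 0.0238 to 0.224% in HSC-KO ECs, while 6 continuous EC markers (*Cd34*, *Emcn* and others) took 0.0921 to 0.155% against 0.798 to 1.08%. The 11 pan-endothelial markers took 0.791 to 0.879% against 1.05 to 1.23%. These are shares of all counts, of which *Dnase1l3* alone took 14.0, 20.4 and 18.5% in control ECs and 5.57, 0.276 and 0.127% in HSC-KO ECs. In the scaled edgeR test the 11 markers had a median log2 fold change of 0.22. There 2 passed as higher and 1 as lower, where 10.3% of all genes were higher and 9.77% lower. HSC-KO EC replicate 1 had the most sinusoidal transcript of its group. Markers of other cells moved too. The 4 monocyte markers took 1.54e-05 to 3.07e-05% in control ECs and 0.00675 to 0.00827% in HSC-KO ECs. The 6 macrophage markers took 0.0215 to 0.0281% against 0.00667 to 0.0113%, and the 5 Kupffer cell markers 0.00192 to 0.00230% against 0 to 1.65e-05%. Their part in the EC values that follow was not tested. Of the mice, 3 were the source of EC as well as macrophage RNA. By *Xist* and Y-linked counts, replicates 1 to 3 read as female, male and male in control ECs and female, male and female in HSC-KO ECs. Macrophages read as male, male and female in their controls and male, female and female in HSC-KO mice. All macrophages of the *Smad4* comparison read as male.

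In control mice *Tek*, *Tie1*, *Ptprb* and *Angpt2* were higher in sorted ECs than in macrophages or whole livers, and *Angptl4* was lower in ECs than in both. Levels of different genes were set side by side as CPM per kb of exon, scaled over all 24 libraries. In control ECs *Ptprb* was highest at 333 ± 16.9 CPM per kb (SD, n = 3), followed by *Tek* at 151 ± 6.60, *Tie1* at 84.7 ± 7.44 and *Angpt2* at 8.57 ± 2.21. *Angptl4* stood at 0.216 ± 0.152 and *Angpt1* at 0.0217 ± 0.00344 CPM per kb. No library of one gene in this order reached the level of its neighbour. These levels depend on the length chosen: with the longest transcript in place of all exons *Ptprb* had 373, *Tie1* 98.3 and *Angpt1* 0.0265 CPM per kb, in the same order.

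In control livers the order began with *Angptl4* at 61.2 ± 27.1 CPM per kb (SD, n = 3), ahead of *Ptprb* at 10.2 ± 1.83. *Tie1* at 6.17 ± 0.638 and *Tek* at 5.95 ± 0.620 CPM per kb did not differ beyond their spread, nor did *Angpt2* at 0.344 ± 0.0695 and *Angpt1* at 0.250 ± 0.0877. In control macrophages of the *Gdf2/Bmp10* study *Angptl4* had 3.61 ± 0.555 CPM per kb. *Ptprb* in these macrophages varied widely at 3.47 ± 3.07 and overlapped *Angptl4*, *Tek* had 0.897 ± 0.657, *Tie1* 0.530 ± 0.480, *Angpt2* 0.186 ± 0.114 and *Angpt1* 0.00910 ± 0.0158, and neighbouring genes among *Ptprb*, *Tek*, *Tie1* and *Angpt2* overlapped.

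Against control macrophages, 47.9% of 18949 genes passed the test, 23.3% higher in ECs and 24.7% lower (adjusted p below 0.05, edgeR quasi-likelihood, Benjamini-Hochberg). There, *Tek* (log2 difference 7.38, adjusted p = 1.54e-05), *Tie1* (7.30, 0.000201), *Ptprb* (6.57, 0.000269) and *Angpt2* (5.53, 4.57e-06) were higher in ECs, and *Angptl4* was lower (-4.06, 0.000389). With 1 library left out all kept their calls, at 6.92 to 7.98 for *Tek*, 6.72 to 8.03 for *Tie1* and 6.02 to 7.31 for *Ptprb*. *Angpt2* ran from 5.28 to 6.15 and *Angptl4* from -4.72 to -3.68. Against control livers, where 68.7% passed (32.9% higher and 35.8% lower), the same 4 genes were higher in ECs by 3.79 to 5.04 on the log2 scale. Here and wherever livers are compared with sorted cells, age, sorting and RNA extraction (Trizol against a kit) cannot be told apart from sample type. *Angptl4* was lower there (-8.12, edgeR adjusted p = 3.36e-06). *Angpt1* (-3.49, adjusted p = 0.0333) had 12, 8 and 8 counts in control ECs and entered the test only through the livers, where it is higher. It is not read as a difference, and its call was lost without control EC replicate 1, 2 or 3 or control liver replicate 2 or 3 (adjusted p up to 0.0873). Control macrophages had less *Angptl4* than livers (-4.05, adjusted p = 0.000174), less *Tek* (-2.70) and less *Tie1* (-3.51). In this contrast 70.3% of genes passed (33.5% higher and 36.9% lower) and the median gene stood at -0.14. The *Angpt1* value rests on 12, 0 and 0 counts in the control macrophages and moved to -9.74 without replicate 1. *Angpt2* (-0.88, edgeR adjusted p = 0.101) and *Ptprb* (-1.53, 0.119) did not pass in edgeR but passed in DESeq2 (0.0489 and 0.0478). In edgeR *Angpt2* passed without control macrophage replicate 3 (-1.49, adjusted p = 0.0108) and *Ptprb* without replicate 2 (-2.35, 0.0476).

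**Figure D1:**
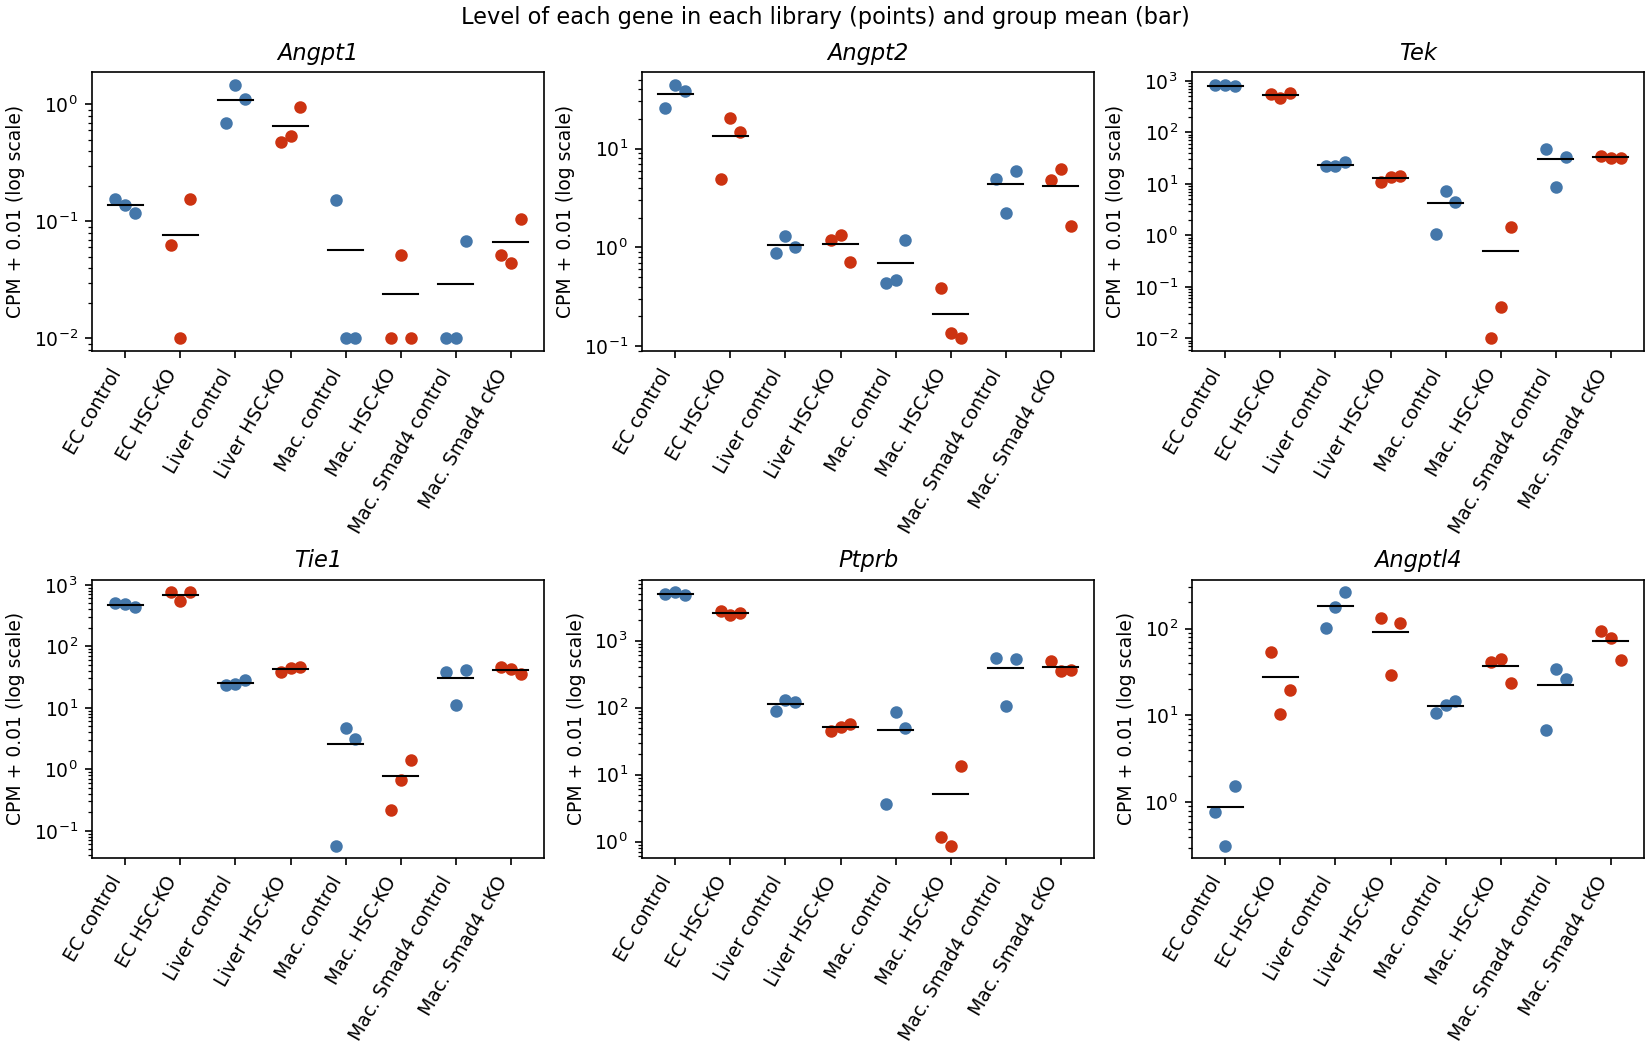
CPM plus 0.01 on a log axis for each gene in each library (points, control in blue and mutant in red) and the group mean (bar), by sample type. *Tek*, *Tie1* and *Ptprb* were highest in ECs, and *Angptl4* of the 3 control EC libraries lay below that of all other groups.

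*Angpt1*, the activating ligand, was close to absent from every sorted fraction. It was at 0 counts in 7 of the 18 sorted libraries and had 12 counts at most in the others, where 3 counts are taken as the limit of detection. It was too low for a test in ECs and in both macrophage comparisons. Whole livers gave 75, 112 and 100 counts in controls and 35, 44 and 67 in HSC-KO mice, or 0.679, 1.46 and 1.11 CPM against 0.469, 0.524 and 0.933 CPM. The highest HSC-KO liver exceeded the lowest control liver, and the log2 fold change of -0.75 ± 0.46 (SE) did not pass (edgeR adjusted p = 0.600).

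*Angpt2*, the ligand that ECs make themselves, was lower in every HSC-KO EC library. Control ECs had 25.5, 44.1 and 38.2 CPM and HSC-KO ECs 4.87, 20.4 and 14.6 CPM. The groups did not overlap, as for 40.4% of the 16053 genes tested in ECs, and replicate 1 was the lowest of its group on both sides. The log2 fold change of -1.44 ± 0.48 missed the threshold in edgeR (adjusted p = 0.0745), while DESeq2 put it past (-1.42, adjusted p = 0.00454), as did edgeR without HSC-KO replicate 1 (-1.04, adjusted p = 0.0413). In livers *Angpt2* had 0.860, 1.30 and 1.01 CPM in controls and 1.17, 1.32 and 0.696 CPM in HSC-KO mice, which overlapped throughout (log2 fold change 0.01 ± 0.38, edgeR adjusted p = 0.998). The EC and liver changes of *Angpt2* differed by -1.41 ± 0.62, which did not pass (adjusted p = 0.219).

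*Tek*, the angiopoietin receptor, fell in HSC-KO ECs and again in HSC-KO livers. Control ECs had 833, 815 and 779.5 CPM and HSC-KO ECs 557, 472 and 578 CPM. Every HSC-KO library lay below every control, and *Tek* fell by 0.59 ± 0.15 on the log2 scale (edgeR adjusted p = 0.0292). In livers the values were 21.8, 22.0 and 26.1 CPM in controls against 10.9, 13.5 and 14.0 CPM. The groups did not overlap there either, and *Tek* fell by 0.86 ± 0.14 (adjusted p = 0.0239).

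*Tie1*, the other Tie receptor, rose in HSC-KO livers and was higher in every HSC-KO EC library. Control ECs had 498, 489 and 429 CPM and HSC-KO ECs 759, 554 and 758 CPM. All 3 HSC-KO libraries were above all 3 controls, but the log2 fold change of 0.55 ± 0.18 missed the threshold in edgeR (adjusted p = 0.0685) and passed in DESeq2 (0.56, adjusted p = 0.0157). It also passed in edgeR without HSC-KO replicate 2 (0.68, adjusted p = 0.0402) and with libraries scaled by total counts (0.84, 0.0195). In livers *Tie1* rose, from 23.4, 23.95 and 28.1 CPM in controls to 38.2, 44.8 and 45.2 CPM in HSC-KO mice. These groups did not overlap, and the log2 fold change was 0.76 ± 0.13 (edgeR adjusted p = 0.0250).

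*Ptprb*, the phosphatase that acts on TEK, fell in both ECs and livers. Control ECs had 5039.9, 5285 and 4809.8 CPM and HSC-KO ECs 2724, 2451 and 2569 CPM. The HSC-KO ECs held close together well below the controls, and *Ptprb* fell by 0.97 ± 0.18 on the log2 scale (edgeR adjusted p = 0.00925). Livers had 88.9, 129.6 and 120.4 CPM in controls and 45.2, 51.7 and 56.8 CPM in HSC-KO mice. No HSC-KO liver reached a control, and the fall was 1.14 ± 0.17 (adjusted p = 0.0156).

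In ECs, then, *Tek* and *Ptprb* fell and *Angptl4* rose among the 5 genes tested, where 20.1% of all genes passed (10.3% higher and 9.77% lower). In livers *Tek* and *Ptprb* fell and *Tie1* rose among the 6, where 2.83% of 17118 genes passed (1.24% higher and 1.59% lower) and 19.7% had groups that did not overlap. The EC and liver changes did not differ past the threshold for *Tek* (difference 0.31 ± 0.21, adjusted p = 0.453), *Tie1* (-0.18 ± 0.23, 0.750) or *Ptprb* (0.21 ± 0.26, 0.731). The shift from sinusoidal to continuous EC markers moved with these changes, and its part in them was not tested. In bulk samples, fewer cells of a type and less RNA per cell cannot be told apart.

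Most of these calls were lost in most of the fits that left 1 library out. In livers, 193 to 311 genes passed in the fits that lost a call, against 484 in the main fit. The EC call for *Ptprb* was kept in each of its 13 alternatives (edgeR adjusted p up to 0.0434 with 1 library left out). The EC call for *Tek* was lost without control replicate 1, 2 or 3 or HSC-KO replicate 2 or 3 (log2 fold changes -0.65 to -0.51, adjusted p up to 0.0933) and when libraries were scaled by total counts (-0.30, adjusted p = 0.236), a scaling that moved the median of all genes in ECs to 0.30. In livers, *Tek* and *Tie1* lost their calls without control replicate 1, 2 or 3 or HSC-KO replicate 1 or 2 (adjusted p up to 0.109 and 0.118), and *Ptprb* without control replicate 2 or 3 or HSC-KO replicate 1 or 2 (up to 0.0831), while each direction was kept. All 3 passed without HSC-KO replicate 3, the one liver library that read as male by *Xist* and Y-linked counts.

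**Figure D2:**
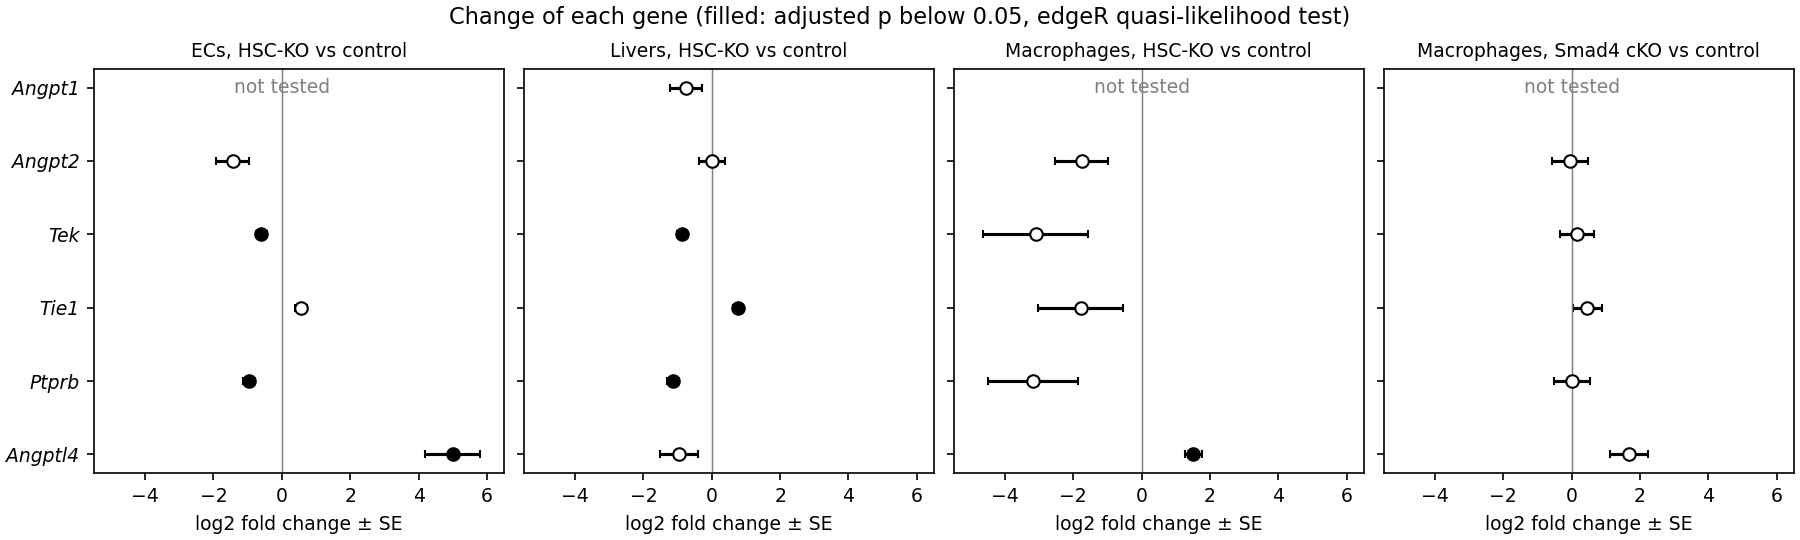
Log2 fold change (point) and SE (bar) of each gene in the 4 comparisons, filled where the adjusted p was below 0.05 in edgeR. *Tek* and *Ptprb* lay below 0 and *Tie1* above 0 in both ECs and livers, and *Angptl4* lay at 4.99 in ECs and at -0.96 in livers.

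The balance of the 2 receptor transcripts was also read within each library, where scaling between libraries plays no part. This ratio was chosen after the fold changes were seen. Counts of *Tie1* per kb divided by those of *Tek* were 0.574, 0.574 and 0.528 in control ECs and 1.31, 1.12 and 1.26 in HSC-KO ECs. In livers they were 1.03, 1.04 and 1.03 in controls and 3.34, 3.19 and 3.10 in HSC-KO mice. Per kb, *Tek* thus outnumbered *Tie1* in control ECs and *Tie1* outnumbered *Tek* in HSC-KO ECs, with a log2 difference of 1.14 in ECs and 1.63 in livers. With 3 libraries against 3 the exact permutation test (two-sided) gave p = 0.1 for each, the smallest it can give, and 0.2 after adjustment over the 6 ratios compared. *Ptprb* per *Tek* went from 2.20 ± 0.0786 to 1.71 ± 0.133 in ECs, with no overlap (exact p = 0.1), and from 1.72 ± 0.327 to 1.42 ± 0.0546 in livers, with overlap (exact p = 0.2).

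Set against 1000 counts of the 11 pan-endothelial markers, the 3 genes kept these directions in ECs and livers. *Tek* went from 86.9 ± 8.78 to 53.1 ± 4.04 in ECs and from 105.4 ± 7.67 to 51.7 ± 8.26 in livers (SD, n = 3). *Ptprb* went from 542 ± 56.9 to 256 ± 14.2 in ECs and from 508 ± 65.5 to 208 ± 35.6 in livers. *Tie1* went from 50.8 ± 7.33 to 68.3 ± 10.1 in ECs and from 114 ± 7.83 to 173 ± 21.7 in livers. Every liver library lay above every EC library of its genotype for *Tie1*, while for *Ptprb* the livers and ECs of each genotype overlapped. None of these ratios was tested. *Kdr*, one of the 11 markers, itself fell in ECs (log2 fold change -0.58, edgeR adjusted p = 0.0489), and *Cyyr1* and *Ecscr* rose (0.99 and 0.76). In livers 2 of the 11 rose, *Robo4* (0.85, adjusted p = 0.0117) and *Sox18* (1.08, 0.0259).

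**Figure D3:**
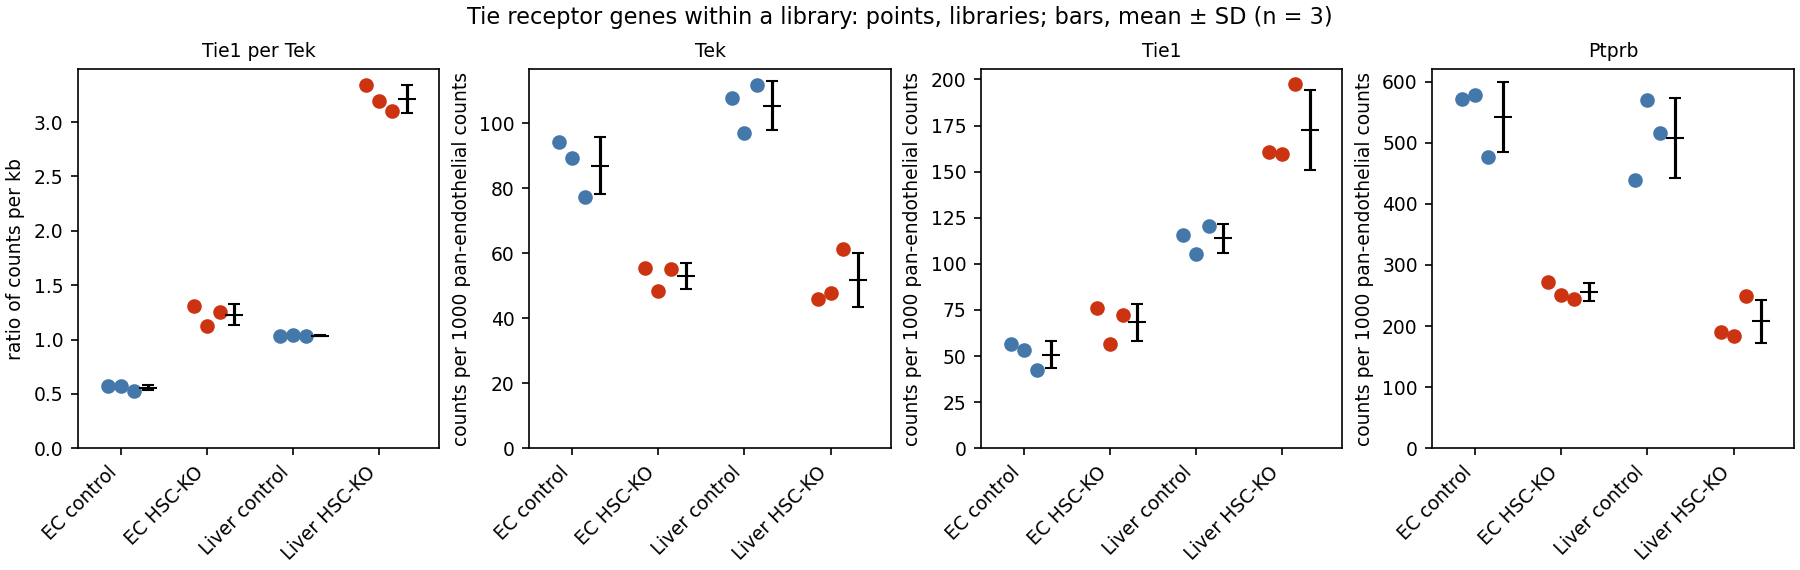
Ratio of *Tie1* to *Tek* counts per kb (left) and counts of *Tek*, *Tie1* and *Ptprb* per 1000 pan-endothelial marker counts, in each EC and liver library (points) with mean and SD (bars, n = 3). The ratio lay at 0.528 to 0.574 in control ECs and 1.12 to 1.31 in HSC-KO ECs, and at 1.03 to 1.04 against 3.10 to 3.34 in livers.

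*Angptl4* rose in HSC-KO ECs, with the largest log2 fold change of the 5 genes tested there, and in HSC-KO macrophages. Control ECs had 63, 19 and 113 counts, or 0.769, 0.307 and 1.53 CPM, and HSC-KO ECs had 5084, 735 and 1614 counts, or 53.9, 10.3 and 19.7 CPM. The groups were far apart, with replicate 1 the highest of the HSC-KO ECs. *Angptl4* rose by 4.99 ± 0.79 on the log2 scale, 31.9-fold (edgeR adjusted p = 0.00468), and kept its call in each of the 13 alternatives (4.10 to 5.67).

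In macrophages of the same genotypes *Angptl4* had 10.7, 13.1 and 14.8 CPM in controls and 40.9, 44.99 and 23.9 CPM in HSC-KO mice. The lowest HSC-KO library was above the highest control, and *Angptl4* rose by 1.51 ± 0.25, 2.85-fold (adjusted p = 0.00599). It was the one gene to pass among the 5 tested, where 19.2% of 16337 genes passed (9.29% higher and 9.87% lower). The 5 Kupffer cell markers took 2.60 to 2.94% of counts in controls and 0.00411 to 0.0232% in HSC-KO macrophages, and the 4 monocyte markers 0.00254 to 0.00411% against 0.144 to 0.217%. Their part in the rise was not tested.

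In livers *Angptl4* had 102, 176 and 262 CPM in controls and 133, 29.005 and 114.6 CPM in HSC-KO mice, which overlapped (log2 fold change -0.96 ± 0.55, edgeR adjusted p = 0.559). The change in ECs was above that in livers by 6.00 ± 1.07 on the log2 scale (adjusted p = 0.00562), where 7.58% of 18875 genes differed (4.31% higher and 3.26% lower). It was above that in macrophages by 3.48 ± 0.86 (adjusted p = 0.0193), where 15.4% of 18213 differed (7.84% higher and 7.58% lower). With 1 library left out the first difference ran from 5.09 to 6.66 and the second from 2.57 to 4.15. The second call was lost without control EC replicate 1 (3.41, adjusted p = 0.0506). HSC-KO ECs had 7.02 ± 5.83 CPM per kb of *Angptl4*, against 30.7 ± 18.5 in HSC-KO livers and 10.3 ± 3.17 in HSC-KO macrophages. These overlapped, since EC replicate 1 at 13.6 CPM per kb was above all 3 HSC-KO macrophage libraries and above the lowest HSC-KO liver at 9.65.

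**Figure D4:**
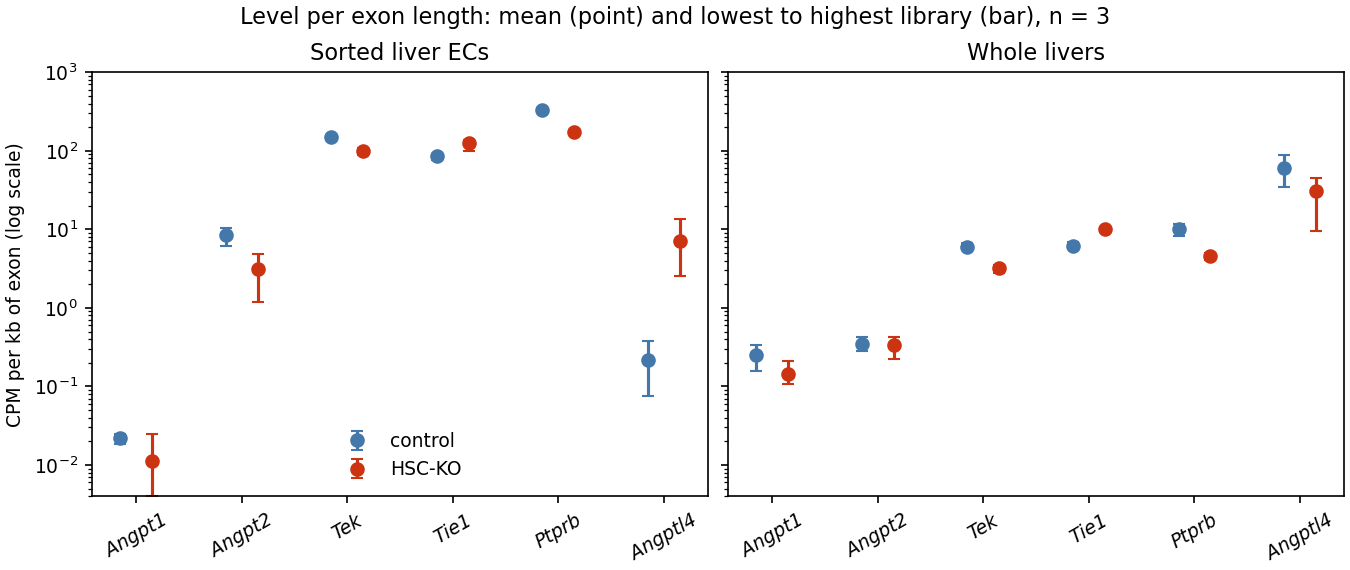
CPM per kb of exon on a log axis for the 6 genes in ECs (left) and livers (right), with the mean (point) and the lowest to highest library (bar) of control (blue) and HSC-KO (red) groups, n = 3. In ECs *Tek* (151 to 100.5) and *Tie1* (84.7 to 124) changed places, and *Angptl4* went from 0.216 to 7.02. A bar that reaches the lower edge holds a library at 0.

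The endothelial genes in the macrophage libraries were low and uneven. *Tek* had 1.04, 7.21 and 4.47 CPM in control macrophages and 0, 0.0315 and 1.45 CPM in HSC-KO macrophages, and *Ptprb* 3.65, 85.2 and 50.5 against 1.17, 0.860 and 13.3 CPM. Libraries of one group lay far apart, and the groups overlapped for both genes. Pan-endothelial markers took 0.00114 to 0.0141% of counts in the controls and 0.000634 to 0.00337% in the HSC-KO libraries. In this comparison, none passed of *Tek* (log2 fold change -3.10 ± 1.55, edgeR adjusted p = 0.210), *Ptprb* (-3.19 ± 1.32, 0.137), *Tie1* (-1.79 ± 1.24, 0.366) and *Angpt2* (-1.75 ± 0.77, 0.160). Of the 5 genes tested, *Angpt2* and *Angptl4* had groups that did not overlap, as did 40.3% of all genes. Without HSC-KO replicate 3, *Ptprb* passed (-5.51, edgeR adjusted p = 0.0372). *Tek* passed too (-7.90, 0.0110), but HSC-KO replicates 1 and 2 then left it at 0 and 3, not above the floor of 3 counts. This *Tek* value is therefore not read as a fall. Replicate 3 held the most pan-endothelial marker counts of its group, 2915 against 545 and 643. The part of the endothelial transcript in these values was not tested.

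Loss of *Smad4* in hematopoietic cells left none of the 5 genes tested past the threshold in edgeR, where 7.74% of 17517 genes passed (3.71% higher and 4.03% lower). Of the 5 genes, 1 had an unadjusted edgeR p below 0.05, as did 3752 of the 17517. None of the 5 passed in DESeq2, where 2099 of 19048 genes did. *Angptl4* had 6.78, 34.3 and 26.4 CPM in the controls and 93.6, 77.3 and 43.7 CPM in cKO macrophages. All 3 cKO libraries were above all 3 controls, as the groups of 29.4% of genes did not overlap, but control replicate 1 lay far below the other controls and the log2 fold change of 1.67 ± 0.55 did not pass (adjusted p = 0.128). *Tek* had 46.7, 8.87 and 33.9 CPM in the controls and 35.2, 31.97 and 32.1 CPM in the cKO, and these overlapped. Log2 fold changes were 0.15 ± 0.50 for *Tek*, 0.46 ± 0.43 for *Tie1*, 0.02 ± 0.53 for *Ptprb* and -0.05 ± 0.53 for *Angpt2* (adjusted p from 0.608 to 0.990). The Kupffer cell markers took 2.24 to 2.78% of counts in the controls and 0.0712 to 0.0820% in cKO macrophages, and the monocyte markers 0.00187 to 0.00237% against 0.0665 to 0.0960%. The part of this shift in these values, and in those of *Angptl7* and *Lpl* given further on, was not tested.

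Both sets of control macrophages were sorted from liver, and the endothelial genes differed between them. The paper spells out the sort markers with the *Gdf2/Bmp10* set and describes the *Smad4* set as sorted liver macrophages. The Smad4FF controls had more *Tek* (log2 difference 2.79, edgeR adjusted p = 0.00946), *Tie1* (3.50, 0.0176), *Ptprb* (3.07, 0.0237) and *Angpt2* (2.66, 0.00216) than the controls of the *Gdf2/Bmp10* study, where 27.5% of genes passed. Pan-endothelial markers took 0.0366 to 0.120% of counts in the Smad4FF controls, above the 0.00114 to 0.0141% of the other set, and the part of this difference was not tested. Study and genotype cannot be told apart in this contrast. The Smad4FF controls all read as male, while replicate 3 of the other set read as female. *Tie1* lost its call without Smad4FF replicate 3 (adjusted p = 0.0508, edgeR), and *Ptprb* without Smad4FF replicate 1 (0.0659) or 3 (0.0642) or without replicate 3 of the other controls (0.0620). *Angptl4* did not pass (0.79, adjusted p = 0.341).

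Around the 6 genes, the pathway lists were read against the share of all genes that passed. Of the 19 genes of TEK signalling, which include *Tek*, *Tie1* and *Ptprb*, none rose and 2 fell in ECs (*Tek* and *Ptprb*), at a median log2 fold change of -0.02 against 0.00 for all genes tested, where 20.1% of all genes passed. In livers 1 rose and 3 fell, at -0.10 against -0.01, where 2.83% passed. The fourth gene in livers was *Dok2*, an adaptor that binds TEK and is also made by blood cells, which fell by 1.65 (edgeR adjusted p = 0.0239). *Dok2* had 319.5 to 557 CPM in control macrophages and 0.659 to 1.18 CPM in control ECs. In the same livers the 6 macrophage markers took 0.0161 to 0.0264% of counts in controls and 0.00522 to 0.00763% in HSC-KO mice, and the 5 Kupffer cell markers 0.0241 to 0.0418% against 5.66e-05 to 0.000225%. Their part in the fall of *Dok2* was not tested. *Dok2* also fell in HSC-KO macrophages, by 1.75 (adjusted p = 0.00864), and there the adaptor gene *Grb2* fell by 0.72 (0.00935) and *Foxo3*, a forkhead transcription factor, rose by 0.68 (0.00643). In all, 2 of the 19 rose and 3 fell in HSC-KO macrophages, where 19.2% of all genes passed, at a median of -0.57 against 0.04. *Smad4* cKO macrophages had 3 of 19 lower, among them *Pik3r1* (-0.77, adjusted p = 0.0233) and *Grb2* (-0.69, 0.0280), and none higher, where 7.74% of all genes passed, at a median of 0.04 against 0.04.

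Other ligands were measured mainly in whole livers. *Lect2*, a hepatocyte protein that binds TIE1, had 104.7, 87.6 and 118 CPM in control livers and 19.1, 20.5 and 7.76 CPM in HSC-KO livers. Every HSC-KO liver was far below the controls, and *Lect2* fell by 2.71 ± 0.35 (edgeR adjusted p = 0.00933). *Svep1*, a matrix protein that also binds TIE1, had 1.63, 0.482 and 1.56 CPM in controls and 4.02, 4.20 and 2.51 CPM in HSC-KO livers. *Svep1* is named beside *Lect2* as the other gene of its list. Its groups did not overlap, with a log2 fold change of 1.54 ± 0.47 that did not pass (adjusted p = 0.19).

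Among the 10 genes of the angiopoietin and angiopoietin-like family, 6 were tested in ECs, where *Angptl4* alone passed, against 20.1% of all genes, and the median log2 fold change was -0.88 against 0.00 for all genes tested. All 10 were tested in livers, where none passed, against 2.83% of all genes (median 0.14 against -0.01). In HSC-KO macrophages 2 of 7 were higher and 1 lower, against 19.2% of all genes (median 0.23 against 0.04), but 1 of the 2, *Angptl1*, named after its values were seen, is not read as a rise. It had 0 counts in all 3 controls and 22, 24 and 45 in the HSC-KO libraries, so that it entered the test only through the group where it is higher. In *Smad4* cKO macrophages none of 8 was higher and 1 lower, against 7.74% (median 0.24 against 0.04). In HSC-KO macrophages *Angptl7* fell by 3.38 (edgeR adjusted p = 0.000409), from 20.98, 14.9 and 12.1 CPM to 1.32, 1.22 and 2.06 CPM. It fell by 5.31 in *Smad4* cKO macrophages (adjusted p = 0.00116), from 8.50, 20.9 and 11.97 CPM to 0.268, 0.215 and 0.573 CPM.

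*Angptl4* belongs to the lipoprotein lipase axis, and *Lpl*, the enzyme that it inhibits, rose in HSC-KO ECs and fell in HSC-KO macrophages. *Lpl* had 0.952, 1.29 and 1.28 CPM in control ECs and 5.46, 8.21 and 7.47 CPM in HSC-KO ECs, a rise of 2.59 ± 0.28 on the log2 scale (edgeR adjusted p = 0.000801). In macrophages it stood at 1310.2, 935 and 1103 CPM in controls and 259, 469 and 348 CPM in HSC-KO mice, and fell by 1.64 ± 0.24 (adjusted p = 0.00314). The change in ECs was above that in macrophages by 4.22 ± 0.35 (adjusted p = 3.31e-05). *Lpl* fell by 1.39 in *Smad4* cKO macrophages (adjusted p = 0.00252), where *Apoc2*, its activator, rose by 1.39 (0.0103), as it did by 0.80 in HSC-KO macrophages (0.00848). *Lmf1*, which matures the enzyme, fell by 0.65 in ECs (0.0187). In livers *Lpl* had 16.6, 17.9 and 15.8 CPM in controls and 110.5, 101.7 and 6.66 CPM in HSC-KO mice, where replicate 3 lay below the controls and the gene did not pass (adjusted p = 0.315). Of the 11 genes of this axis, 9 were tested in ECs, with 2 higher and 1 lower where 20.1% of all genes passed. In HSC-KO macrophages 2 of 9 were higher and 1 lower (19.2%), in *Smad4* cKO macrophages 1 of 10 higher and 1 lower (7.74%), and in livers none of 11 passed (2.83%), at median log2 fold changes of -0.65, -1.07, -0.05 and -0.23.

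Beside *Angptl4*, PPAR targets passed in both directions in ECs, and hypoxia targets in both directions in HSC-KO macrophages. In ECs, 2 of 10 PPAR targets rose (*Angptl4* and *Fabp4*, a fatty acid carrier, 1.86, edgeR adjusted p = 0.000274) and 3 fell, among them *Pdk4* (-2.65, 0.00487) and *Cpt1a* (-0.47, 0.0233), enzymes of fatty acid use. Of all genes, 10.3% were higher and 9.77% lower. The median of the list was -0.21 against 0.00 for all genes tested. Of 11 hypoxia targets, 10 were tested in ECs, where *Angptl4* and the glucose transporter gene *Slc2a1* (1.73, adjusted p = 0.00174) rose and none fell, at a median of -0.09. In HSC-KO macrophages 3 of the 9 tested rose, *Angptl4*, *Pfkfb3* (1.83, 0.000295) and *Bnip3* (0.88, 0.0184), and 3 fell, among them *Adm* (-5.43, 0.003996) and *Ldha* (-0.85, 0.00452), at a median of -0.48 against 0.04, where 9.29% of all genes were higher and 9.87% lower. *Adm* also fell in *Smad4* cKO macrophages (-2.43, adjusted p = 0.00204).

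Across the 24 libraries, the genes whose log2 CPM followed each gene most closely were named by a fixed rule from 11651 genes, as a description of libraries that share cell types. *Tek* went most with *Arhgef15* (Pearson r = 0.991), *Adgrl4* (0.987) and *Pcdh12* (0.986). *Ptprb* went with *Tinagl1* (0.991), *Cd300lg* (0.990) and *Sema6a* (0.990), and *Tie1* with *Tmem44* (0.988), *Tshz2* (0.985) and *Adgrg1* (0.984). Among the 3 nearest to *Angpt2* were *Dpysl3* (0.938) and *Mapk12* (0.932), and the nearest to *Angpt1* was *Fmo4* (0.932). *Angptl4* had no gene as close, with *Chn2* at 0.884, *Fam20c* at 0.878 and *Nup210* at 0.874.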

How the data were processed

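The authors aligned the reads to GRCm38 (mm10) with HISAT2 and counted them per gene with featureCounts. The submitters' processing notes also name FastQC and DESeq2. Versions, annotation release and use of strand are not given in the sources used here. The deposited values were raw counts, in 4 tables of 48820 entries and 6 libraries each. No column of the tables was left unused.

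Each comparison was fitted in its own table with edgeR 4.0.16 (quasi-likelihood test, R 4.3.3), after filterByExpr (minimum count 10, minimum total 15) and TMM scaling. p-values were adjusted by Benjamini-Hochberg over all genes tested, with a threshold of 0.05. Tests across sample types used TMM over the libraries of the groups compared in 1 fit. DESeq2 1.42.0 was an alternative. Genes were joined by symbol to GENCODE vM21 for positions and exon length, and to RefSeq promoters, of which 2 of 6 matched and 1 was used. Motifs were searched in 250 bases before the start, shorter than first planned. Scripts were tested on simulated data.

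The 6 genes and the lists were chosen with earlier results of these data known. Of each list, up to 4 further genes per comparison were named: those that passed, averaged 0 or more in log2 CPM and had the largest log2 fold change. A few genes that these rules select are not reported here. The 3 genes most like each gene were those with the highest Pearson correlation of log2 CPM (prior count 2). Replicates are separate samples by their labels. No 2 libraries were identical. Library totals of 60911527 to 110879155 counts leave counting error small except where a gene had few counts, as *Angpt1* in sorted cells, *Tek*, *Tie1* and *Angpt2* in some macrophage libraries and *Angptl4* in control ECs. The floor of 3 counts covers counting error only.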

Additional observations from a re-analysis of the deposited data

Results flagged for a closer look

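The change of *Angptl4* differed between sample types under the same loss of *Gdf2* and *Bmp10*. Livers also differed from ECs in age (12 against 8 to 10 weeks), sorting and RNA extraction, which cannot be told apart from sample type. The log2 fold change in ECs exceeded that in livers by 6.00 (SE 1.07, edgeR interaction test, adjusted p = 0.00562), with all 3 HSC-KO ECs above all 3 control ECs and overlapping liver groups. It exceeded that in macrophages by 3.48 (SE 0.86, adjusted p = 0.0193), where both cell types rose. The ECs and macrophages of 3 mice, 1 of them a control, entered this fit as independent libraries.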

How the results depend on the processing

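The fold changes of the 6 genes and the counts of genes passed were recomputed with DESeq2, other scalings and filters, a replicate block and each library left out. A sex covariate was also fitted for ECs and for HSC-KO macrophages. Levels per kb were recomputed with the longest transcript, which took *Tie1* in control livers from 6.17 to 7.16 and, in the control macrophages of the HSC-KO comparison, put the mean of *Ptprb* (3.89) above that of *Angptl4* (3.87), the reverse of the order with all exons. Values of the other named genes and the ratios within libraries were not. In ECs 3 of the genes described passed, where 20.1% of all genes did, and 5 in DESeq2, where *Angpt2* and *Tie1* were added and 22.3% of 18663 genes passed. The count of all genes passed went from 484 to 1090 (DESeq2) in livers, from 1356 to 2099 for *Smad4* loss, and from 1430 to 2635 (DESeq2) or 2334 (total counts without TMM) for the EC change against the liver change. For control macrophages against livers, 4 of the genes passed, *Angpt1* included, and 2 when at least 10 counts were needed in every library, which removed genes from the test.

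With each library left out, genes passed ranged from 2033 to 3331 in ECs, 1953 to 2881 in HSC-KO macrophages, 193 to 515 in livers and 622 to 1238 for *Smad4* loss. Of the 6 genes, 2 to 4 passed in ECs, 1 to 3 in HSC-KO macrophages, 0 to 3 in livers, 0 to 3 for the EC change against the macrophage change, and 2 to 4 between the 2 sets of control macrophages. Log2 values that changed sign, none of them past the threshold, ranged from -0.32 to 1.06 for *Angpt2* and -4.36 to 4.16 for *Angpt1* (EC against macrophage change), -1.33 to 0.42 for *Angpt1* (EC against liver change), -5.05 to 3.83 for *Angpt1* (control macrophages), -0.18 to 0.24 for *Angpt2* in livers, and -0.44 to 0.33, -0.45 to 0.33 and -0.30 to 0.61 for *Angpt2*, *Ptprb* and *Tek* with *Smad4* loss. With total counts the sign also changed for the EC against liver change of *Angpt1* (0.26) and *Tie1* (0.19), for *Angpt2* in livers (-0.10) and with *Smad4* loss (0.10). The causes were not tested.

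Same-numbered samples did not all correlate above 0.1 in any comparison, and the main tests used no pairing. In ECs these values were r = 0.103, 0.117 and 0.0334, while different-numbered ones ran from -0.130 to 0.0234. In both macrophage comparisons the same-numbered values had both signs. With 3 samples a group, whether the numbers mark pairs cannot be told. With a replicate block, 296 genes passed in livers and 799 for *Smad4* loss, *Angpt2* passed in ECs (-1.62, edgeR adjusted p = 0.0155), and *Angpt2* in livers stood at -0.0215. The block also ended the call of *Angpt1* in control ECs against control livers (-3.61, edgeR adjusted p = 0.0603). With 3 libraries a group, fewer genes passed wherever fewer libraries were fitted in livers and for *Smad4* loss, apart from the liver fit that left out HSC-KO replicate 3. *Angpt1* had 0 to 12 counts in sorted cells, too few to show a difference there.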
